A study of Equisetum hyemale and Pteris vittata and Marchantia polymorpha with 22 samples.

Results

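*Equisetum hyemale*, a horsetail, is an evergreen fern relative that spreads through rhizomes in wet ground. The response of its shoots to oxygen shortage was measured by mRNA sequencing in 6 of the 22 libraries of the series, which are all the *E. hyemale* libraries analysed here. The hypoxia group held 3 libraries from 13-day-old plantlets kept for 8 h in the dark at 1% O2, and the air group held 3 libraries from plantlets of the same age kept for 8 h in the dark at 21% O2. Diploid sporophytes had been raised in soil under long days. Each biological replicate pooled 3 young shoots, and the replicates were numbered 1, 3 and 4 in both groups. No genome was used for this species: reads were assembled into 55254 genes, of which 21131 (38.2%) carried a best match to an *Arabidopsis thaliana* gene, here called a best hit, and 7056 different Arabidopsis genes were hit. Functions below are those of the Arabidopsis hit, so they are borrowed across a very long evolutionary distance. An assembled gene need not be a whole gene of the plant: 20275 of the 21131 genes with a best hit shared that hit with another assembled gene.

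Oxygen is the last electron acceptor of mitochondrial respiration. When it runs short, flowering plants break down sucrose through sucrose synthase and glycolysis, and regenerate NAD+ by turning pyruvate into ethanol through pyruvate decarboxylase and alcohol dehydrogenase, or into lactate through lactate dehydrogenase. In Arabidopsis, oxygen is sensed through plant cysteine oxidases, which use it to mark group VII ethylene response factors (ERFVII) for destruction by the N-degron pathway. When oxygen falls these factors persist and switch on a core set of genes, among them the genes of fermentation and of the cysteine oxidases themselves.

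Values are CPM, the reads of a gene scaled to a fixed library total and normalised between libraries by the authors. Depth, estimated from the steps between low values, was about 20100000 to 21700000 reads in hypoxia libraries and 19300000 to 21200000 reads in air libraries, so that a read was worth about 0.05 CPM. Hypoxia replicate 4 stood apart. Its correlations with the other libraries over 24992 genes above 5 CPM were 0.900 to 0.934, against 0.936 to 0.978 for the other 10 pairs, and it lay above the mean of the other hypoxia libraries by more than 1 log2 unit for 403 genes and below it for 720. The median SD between replicates on the log2 scale was 0.24 in hypoxia and 0.12 in hypoxia without replicate 4, against 0.14 in air. Hypoxia replicate 4 also had 984 genes at 0, against 370 to 400 in the other hypoxia libraries and 539 to 668 in air. Calls of named genes that depend on it are given with and without it. Genes of photosystems and antennae summed to 22834 to 24398 CPM in hypoxia and 27706 to 29173 CPM in air, as abundant transcripts of a green shoot. Genes with hits named for root hairs or the root cap summed to 462 to 486 CPM in hypoxia and 485 to 503 CPM in air, most of it from RHD3, which is not restricted to roots. Hits to organelle genomes took 0.105 to 0.135% of CPM in hypoxia and 0.134 to 0.157% in air. In whole shoots, fewer cells of a type and less RNA per cell cannot be told apart.

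**Figure D1:**
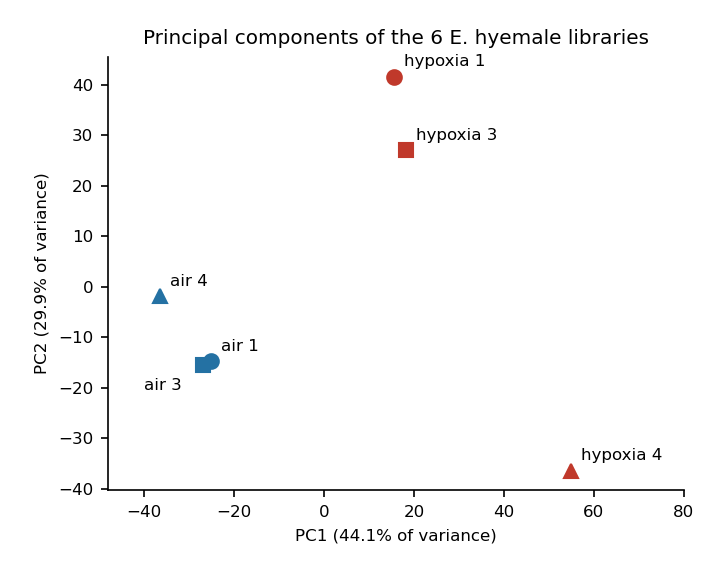
Principal components of the 6 *E. hyemale* libraries, from log2(CPM + 1) of 24992 genes above 5 CPM; the x axis is the first component (44.1% of variance) and the y axis the second (29.9%), red points are hypoxia and blue points air, and symbols mark the replicate number. All 3 hypoxia libraries lie to the right of the air libraries, and hypoxia replicate 4 lies far from hypoxia replicates 1 and 3 on the second component.

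At an FDR of at most 0.01 and an absolute log2 fold change (log2FC) above 1, 372 genes were upregulated and 25 downregulated by hypoxia, which is 0.673% and 0.0452% of the 55254 genes tested. Fold changes are hypoxia over air on the scale of log2(CPM + 1), which understates changes of low genes. Past these thresholds most calls were upward. The upregulated genes, selected for their rise, summed to 22516 CPM in hypoxia and 5967 CPM in air. Of them 164 were past 2 log2 units and 51 past 3, whereas 2 downregulated genes were past 2. Smaller changes did not lean upward: at p under 0.05 without adjustment in limma, 6.46% of genes with a hit were higher and 7.3% lower. In every called gene the hypoxia and air libraries did not overlap, as was the case for 9.66% of all genes in the upward and 9.38% in the downward direction. The median log2FC of all genes was -0.00085. When all genes that shared a best hit were summed, 35 of 7056 sums were upregulated (0.496%) and 3 downregulated (0.0425%). Without hypoxia replicate 4 the counts were 454 upregulated and 81 downregulated genes, of which 352 and 19 were also called with all 6 libraries. Leaving out an air library instead gave 210 to 236 upregulated and 8 to 10 downregulated genes.

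**Figure D2:**
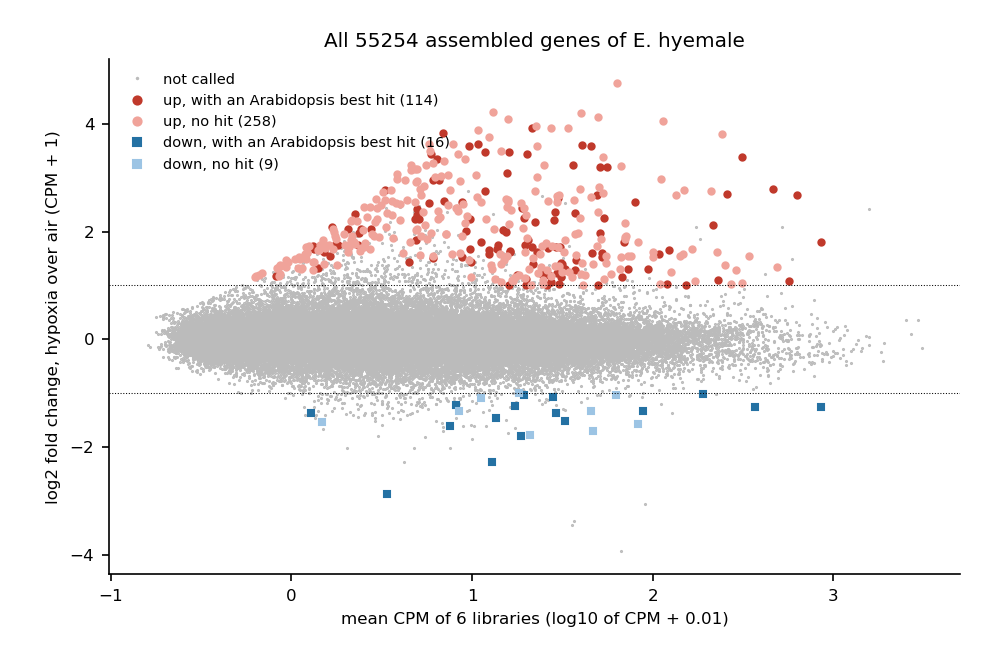
Log2 fold change of hypoxia over air (y axis, from CPM + 1) against mean CPM of the 6 libraries (x axis, log10 of CPM + 0.01) for all 55254 genes; dotted lines mark 1 log2 unit, red points are upregulated, blue squares downregulated, and pale symbols have no Arabidopsis hit. The 372 upregulated genes far outnumber the 25 downregulated genes, and 258 of the upregulated genes are pale.

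The genes that turn pyruvate into ethanol were strongly upregulated. Of 10 genes with pyruvate decarboxylase hits 5 were upregulated, and of 6 genes with an alcohol dehydrogenase 1 (ADH1) hit 3 were upregulated, or 50% of each, against 0.539% of all genes with a hit upregulated and 0.0757% downregulated. The pyruvate decarboxylase gene Ehym_DN110531_c1_g3 (hit AT4G33070, PDC1) had 1210, 1061 and 1000 CPM in hypoxia replicates 1, 3 and 4, against 186, 170 and 153 CPM in air (log2FC 2.68 ± 0.13 SE, FDR = 5.5e-06). Its hypoxia mean was 6.42 times its air mean, and the 3 hypoxia libraries lay close together. The companion gene Ehym_DN110531_c1_g1 was also called, with 24.3, 22.8 and 16.6 CPM in hypoxia and 2.21, 2.21 and 2.37 CPM in air (log2FC 2.75 ± 0.20). Of 4 genes with a PDC3 hit 3 were called, with log2FC of 2.62 to 3.20 (Ehym_DN109196_c8_g1 the smallest). Ehym_DN111388_c0_g2 had 122, 87.5 and 93.7 CPM in hypoxia and 11.5, 8.25 and 10.4 CPM in air (log2FC 3.20 ± 0.17, FDR = 9.2e-06). The 2 genes with a PDC2 hit were not called, with summed levels of 19.95 CPM in hypoxia and 20.3 CPM in air. Nor were the 2 genes with the hit AT5G17380, a pyruvate decarboxylase family member by name, with summed levels of 36.5 and 36.7 CPM.

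ADH1, which reduces acetaldehyde to ethanol, was represented by a pair of highly responsive genes. Ehym_DN110450_c2_g2 had 965, 787 and 689 CPM in hypoxia and 125, 122 and 100 CPM in air (log2FC 2.80 ± 0.15, FDR = 9.2e-06). Ehym_DN110648_c5_g1 had 545, 465 and 334 CPM in hypoxia and 72.4, 69.0 and 59.3 CPM in air (log2FC 2.70 ± 0.17, FDR = 2.4e-05). In both genes hypoxia replicate 4 was the lowest of the hypoxia libraries, and each log2FC was larger without it (2.91 and 2.90). Of a further pair, Ehym_DN104348_c0_g2 was called, with 2.40 to 5.16 CPM in hypoxia and at most 0.363 CPM in air, and Ehym_DN104348_c0_g3 missed the threshold, with 10, 4.59 and 3.45 CPM in hypoxia and 0.731, 0.657 and 0.459 CPM in air (log2FC 2.01, FDR = 0.011), but was called without hypoxia replicate 4 (log2FC 2.28, FDR = 0.0033). Ehym_DN104348_c0_g2 was not called without hypoxia replicate 3, air replicate 3 or air replicate 4, so that 2 to 4 ADH1 genes were called when a library was left out. The remaining ADH1 genes, Ehym_DN105646_c4_g1 and Ehym_DN105646_c4_g2, had log2FC of -0.67 and 0.26 and were not called. None of 32 genes with hits to other alcohol dehydrogenases was called in either direction by limma (2 of 32 were higher and 6 lower when p without adjustment was under 0.05, against 6.46% and 7.3% of all genes with a hit). Genes with these sucrose synthase, pyruvate decarboxylase and ADH1 hits together took 0.527, 0.438 and 0.398% of all CPM in hypoxia replicates 1, 3 and 4, against 0.110, 0.111 and 0.0973% in air.

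The lactate branch was upregulated too. The 2 genes with a hit to the Arabidopsis lactate dehydrogenase (AT4G17260) were both called. Ehym_DN108749_c0_g2 had 24.7, 33.4 and 42.7 CPM in hypoxia and 8.44, 10.8 and 9.01 CPM in air (log2FC 1.71 ± 0.20, FDR = 0.0014), and Ehym_DN108749_c0_g1 had 17.1, 23.95 and 33.0 CPM in hypoxia and 4.85, 6.45 and 4.09 CPM in air (log2FC 2.04 ± 0.25). Unlike ADH1, hypoxia replicate 4 was the highest library for both. Neither gene was called without hypoxia replicate 3, air replicate 1 or air replicate 4. Alanine aminotransferases, which store carbon and nitrogen as alanine in flooded roots of flowering plants, were not called in any of 7 genes. At p under 0.05 without adjustment in limma, 2 were higher and 2 lower. The member of highest CPM, Ehym_DN109683_c2_g3, had 487, 507 and 575 CPM in hypoxia and 675, 660 and 587 CPM in air (log2FC -0.29, FDR = 0.33). Summed over its 5 genes, the hit AT1G17290 had 224 CPM in hypoxia and 164 CPM in air, whereas the whole list had 876 and 969 CPM. No call was made among 30 aldehyde dehydrogenase genes either, beside 0.539% of all genes with a hit upregulated and 0.0757% downregulated. Lists of 7 and 30 genes can have no call at such shares.

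Genes of sucrose cleavage rose in part. Sucrose synthase splits sucrose without spending ATP, and 7 of 24 sucrose synthase genes were upregulated. Ehym_DN111400_c3_g1 (hit SUS2) had 1509, 1214 and 1257 CPM in hypoxia and 406, 401 and 327 CPM in air (log2FC 1.81 ± 0.14, FDR = 6.1e-05). Ehym_DN111213_c6_g10 (hit SUS3) had 203, 155 and 209 CPM in hypoxia and 60.5, 58.6 and 57.0 CPM in air (log2FC 1.66 ± 0.14). Other genes of the same Trinity cluster were called too, such as Ehym_DN111213_c6_g5 with 14.5, 9.54 and 10.7 CPM in hypoxia and 0.738, 0.863 and 0.245 CPM in air (log2FC 2.96 ± 0.25). Summed over the 12 genes with a SUS2 hit, the level was 1455 to 1791 CPM in hypoxia and 444 to 530 CPM in air. Invertases, which cleave sucrose by hydrolysis, were not called in any of 34 genes, and 26 of the 34 were lower in hypoxia (median log2FC -0.22). At p under 0.05 without adjustment in limma 2 were higher and 9 lower, beside 6.46% and 7.3% of all genes with a hit. Without hypoxia replicate 4, 1 invertase gene was downregulated.

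**Figure D3:**
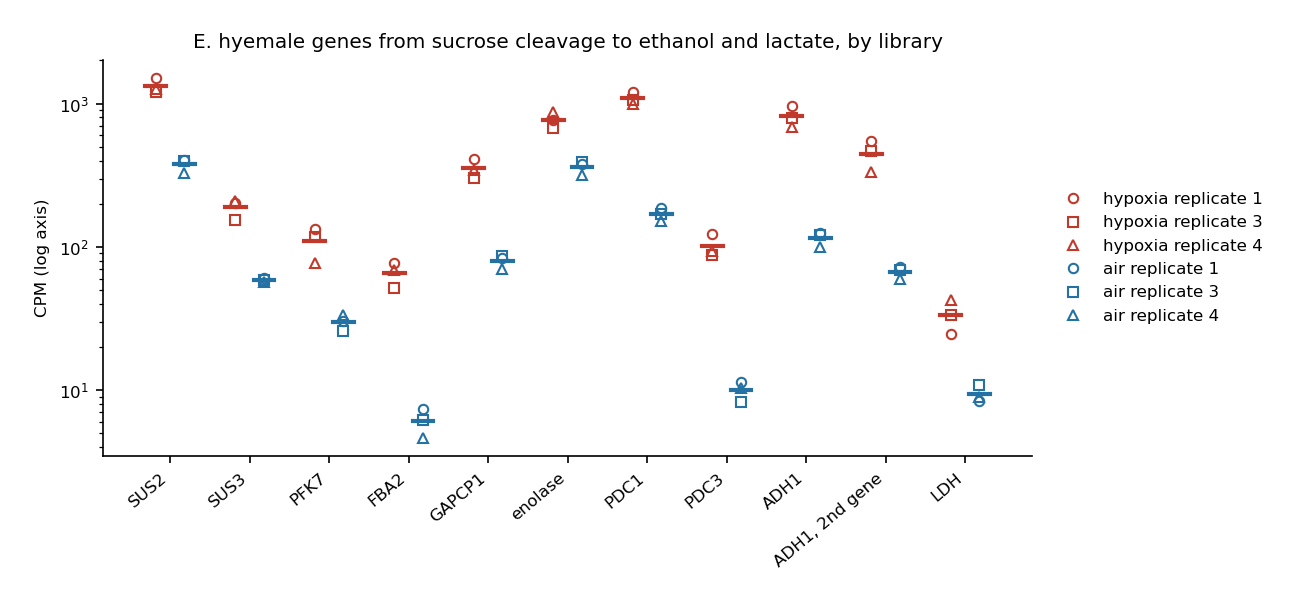
CPM (log axis) of 11 called genes along the route from sucrose to ethanol and lactate, named by their Arabidopsis hits; open symbols are single libraries marked by replicate number, bars are group means of 3, and hypoxia (red) stands left of air (blue). In each of the 11 genes every hypoxia library lies above every air library, from SUS2 at 1214 CPM and above in hypoxia to lactate dehydrogenase (LDH) at 24.7 CPM and above. The GAPCP1 hit is a plastid form by name, and the compartment of the enzymes shown, the aldolase included, was not tested.

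Within glycolysis calls were scattered over several steps. Phosphofructokinase 7, which commits hexose phosphate to glycolysis using ATP, was upregulated as a sum of its 2 genes, with 633, 477 and 478 CPM in hypoxia and 257, 259 and 230 CPM in air (log2FC 1.08 ± 0.12, FDR = 0.0032). Of those genes, Ehym_DN108180_c1_g3 was called (134, 117 and 77.8 CPM in hypoxia, 30.6, 26.0 and 33.6 CPM in air), whereas Ehym_DN108180_c1_g2 stayed under the fold threshold with 499, 360 and 400 CPM in hypoxia and 226, 233 and 197 CPM in air (log2FC 0.93, FDR = 0.0077). No other of 17 phosphofructokinase genes was called. Of 103 genes for other glycolytic enzymes 12 were upregulated and 1 downregulated. Leaving out 1 hypoxia library gave 9 to 11 upregulated, and leaving out air replicate 1, 3 or 4 gave 6, 5 and 6. The aldolase gene Ehym_DN111010_c9_g3 (hit FBA2) had 77.4, 52.0 and 69.0 CPM in hypoxia and 7.41, 6.23 and 4.64 CPM in air (log2FC 3.24 ± 0.20). Glyceraldehyde-3-phosphate dehydrogenase genes rose as well: Ehym_DN109746_c7_g1 (hit GAPCP1) had 411, 304 and 346 CPM in hypoxia and 83.9, 86.0 and 70.4 CPM in air (log2FC 2.12 ± 0.14), and Ehym_DN111141_c11_g1 (hit GAPCP2) had 90.8, 70.1 and 84.1 CPM in hypoxia and 21.2, 20.6 and 18.1 CPM in air (log2FC 1.97 ± 0.14). Both hits are plastid forms by name, and the compartment of the horsetail enzymes, the aldolases included, was not tested. Enolase, the penultimate step, was upregulated in 2 of 12 genes with the hit AT2G36530, among them Ehym_DN111049_c5_g3 with 763, 680 and 880 CPM in hypoxia and 378, 394 and 319 CPM in air (log2FC 1.09 ± 0.14); without hypoxia replicate 4 its log2FC was 0.99 and it was no longer called, and the call was also lost when any air library was left out. The aldolase gene of highest CPM, Ehym_DN111349_c1_g1 (hit AT2G01140), was lower in hypoxia in every library, with 913, 1071 and 1056 CPM against 1409, 1363 and 1236 CPM in air (log2FC -0.40, FDR = 0.17). Summed over the hit, AT2G01140 had 1704 CPM in hypoxia and 2121 CPM in air, and FBA2 had 69.0 and 9.71 CPM. The single downregulated gene, Ehym_DN106316_c5_g5, hit the beta subunit 1 of the plastid pyruvate kinase. It was listed at 0 or less than a read in all hypoxia libraries, against 10.2, 5.31 and 4.63 CPM in air, while the summed level of its 4-gene hit was 223 CPM in hypoxia and 230 CPM in air.

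**Figure D4:**
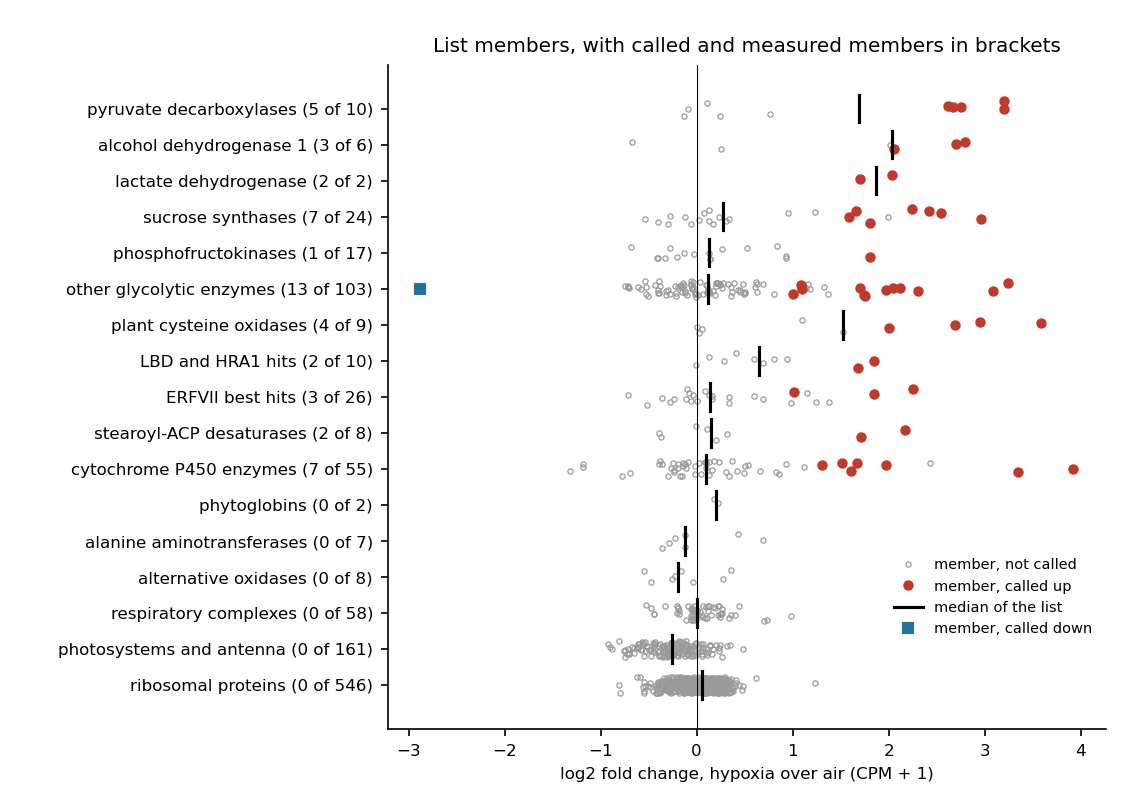
Log2 fold change of hypoxia over air (x axis, from CPM + 1) for every measured member of 17 gene lists; open circles are members that were not called, red points upregulated, the blue square downregulated, and black bars mark the list medians. Pyruvate decarboxylase, ADH1, lactate dehydrogenase and cysteine oxidase lists have medians between 1.52 and 2.03, while ribosomal, respiratory and photosystem genes lie around or below 0.

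Plant cysteine oxidases, the oxygen sensors, were upregulated in 4 of 9 genes (44.4%, beside 0.539% of all genes with a hit). The log2FC of the 9 ran from 0.0029 to 3.59 (median 1.52). The 2 genes with the hit AT3G58670 were not called, with summed levels of 26.2 CPM in hypoxia and 25.1 CPM in air. Of 5 genes with a PCO2 hit 2 were called, and the other 3 summed to 53.0 CPM in hypoxia and 35.7 CPM in air. Ehym_DN105654_c1_g2 (hit PCO1) had 99.2, 75.3 and 82.1 CPM in hypoxia and 12.98, 11.3 and 12.8 CPM in air (log2FC 2.69 ± 0.15, FDR = 9.2e-06). Ehym_DN107561_c0_g2 (hit PCO2) had 22.8, 15.01 and 18.2 CPM in hypoxia and 0.726, 0.445 and 0.685 CPM in air (log2FC 3.59 ± 0.22). Each had a called neighbour in the same Trinity cluster, Ehym_DN105654_c1_g1 (log2FC 2.00) and Ehym_DN107561_c0_g1 (log2FC 2.95). These genes were called in every alternative fit.

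Among 26 genes with ERFVII best hits 3 were upregulated, against 1 without hypoxia replicate 1 or any single air library and 2 without hypoxia replicate 4. Ehym_DN102597_c0_g1 (hit AT3G16770, RAP2.3) had 77.9, 80.3 and 110 CPM in hypoxia and 17.4, 17.8 and 17.9 CPM in air (log2FC 2.26 ± 0.15, FDR = 3.3e-05), and it was called in every alternative fit. Its neighbour Ehym_DN102597_c0_g2 was near the threshold (FDR = 0.0098) and was not called when any library was left out (FDR = 0.016 without hypoxia replicate 4). Ehym_DN102360_c0_g2 (hit AT2G47520, HRE2) had 227, 190 and 195 CPM in hypoxia and 105, 99.7 and 95.5 CPM in air (log2FC 1.02 ± 0.12). It lay at the fold threshold and was not called without hypoxia replicate 1 (log2FC 0.94) or any air library. The ERFVII-hit gene of highest CPM, Ehym_DN110714_c0_g3 (also AT3G16770), went the other way without being called: it had 546, 379 and 237 CPM in hypoxia and 593, 543 and 671 CPM in air (log2FC -0.71, FDR = 0.24). The whole list summed to 1443 CPM in hypoxia and 1470 CPM in air. A best hit does not show that these proteins carry the N-terminal sequence that the oxidases act on.

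Class II LBD factors, which include hypoxia-induced regulators in Arabidopsis, were called for both genes with an LBD38 hit. Ehym_DN98966_c0_g1 had 35.6, 28.0 and 33.8 CPM in hypoxia and 8.83, 6.67 and 9.42 CPM in air (log2FC 1.85 ± 0.17, FDR = 0.00028), and Ehym_DN98966_c0_g2 had a log2FC of 1.69. The LBD39-hit gene Ehym_DN103969_c0_g2 had 103, 81.2 and 67.4 CPM in hypoxia and 50.6, 48.7 and 52.9 CPM in air, which did not pass (log2FC 0.69, FDR = 0.060). The 4 genes with a hit to HRA1, a trihelix factor that restrains ERFVII action in Arabidopsis, were not called (summed levels 31.6 CPM in hypoxia and 22.5 CPM in air). Non-symbiotic haemoglobin, which scavenges nitric oxide, is a strong hypoxia marker in flowering plants. The globin hits here were 2 genes matching the truncated haemoglobin AT4G32690. Ehym_DN109346_c8_g2 had 22.02, 15.6 and 16.7 CPM in hypoxia and 12.9, 15.3 and 17.7 CPM in air (log2FC 0.22, FDR = 0.69), and Ehym_DN109346_c8_g1 had a log2FC of 0.18. Of 49 genes written down as core hypoxia genes of Arabidopsis, 12 were the best hit of any horsetail gene and 6 the best hit of an upregulated gene. These 6 were ADH1, PDC1, PCO1, PCO2, HRE2 and SUS4.

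Enzymes that use molecular oxygen as a substrate were also among the genes with the largest increases. Of 55 genes with cytochrome P450 in their name 7 were upregulated (12.7%) and none downregulated. Without hypoxia replicate 1 or any single air library 4 were upregulated, without hypoxia replicate 3 there were 5, and without hypoxia replicate 4 there were 9. Sterol 14-demethylase (CYP51G1), an oxygen-consuming step of sterol synthesis, accounted for 4 of the 7, of which 2 were called without hypoxia replicate 1 or any single air library. Ehym_DN106157_c3_g4 had 37.1, 46.1 and 40.002 CPM in hypoxia and 2.77, 1.23 and 1.51 CPM in air (log2FC 3.92 ± 0.22, FDR = 1.2e-05), the largest log2FC of any called gene with a hit. Ehym_DN106173_c6_g1 had 12.3, 13.7 and 11.5 CPM in hypoxia and 0.0926, 0.587 and 0.334 CPM in air (log2FC 3.35 ± 0.23). The CYP51G1 gene of highest CPM was not called: Ehym_DN106157_c2_g2 had 171, 164 and 148 CPM in hypoxia and 190, 161 and 184 CPM in air (log2FC -0.15, FDR = 0.68). The called genes made up 60.5 of 272 CPM of this hit in hypoxia and 2.59 of 230 CPM in air, and the sum was not called (log2FC 0.24). No other of the 17 hits in the sterol synthesis list had a called gene. This list, like those for cinnamate-4-hydroxylase, abscisic acid hydroxylase, serine synthesis, glutamine synthetase, carbonic anhydrase, polyamines, ubiquitin, bHLH, NGATHA and the hypoxia-responsive family, was drawn up after the values had been seen.

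Cinnamate-4-hydroxylase, a P450 enzyme on the path from phenylalanine to lignin and flavonoids, showed the same split. Ehym_DN106702_c9_g1 had 802, 445 and 477 CPM in hypoxia and 54.9, 47.6 and 54.3 CPM in air (log2FC 3.38 ± 0.20, FDR = 1.4e-05), and Ehym_DN106702_c12_g1 had 32.6, 31.8 and 49.1 CPM in hypoxia and 2.00, 2.15 and 3.51 CPM in air (log2FC 3.45 ± 0.23). The other 8 of the 10 genes were lower in hypoxia without being called, 5 of them at an unadjusted p under 0.05. The called genes rose to 613 of 1730 CPM of this hit in hypoxia, against 54.8 of 1591 CPM in air, and the sum did not pass (log2FC 0.12, FDR = 0.60). Phenylalanine ammonia-lyase, the enzyme before it, had no called gene, and its member of highest CPM, Ehym_DN108227_c1_g1, had 874, 858 and 631 CPM in hypoxia and 812, 778 and 893 CPM in air. None of 6 chalcone synthase genes passed, and 4 of them were higher at an unadjusted p under 0.05. Without hypoxia replicate 1, 1 of the 6 was upregulated.

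**Figure D5:**
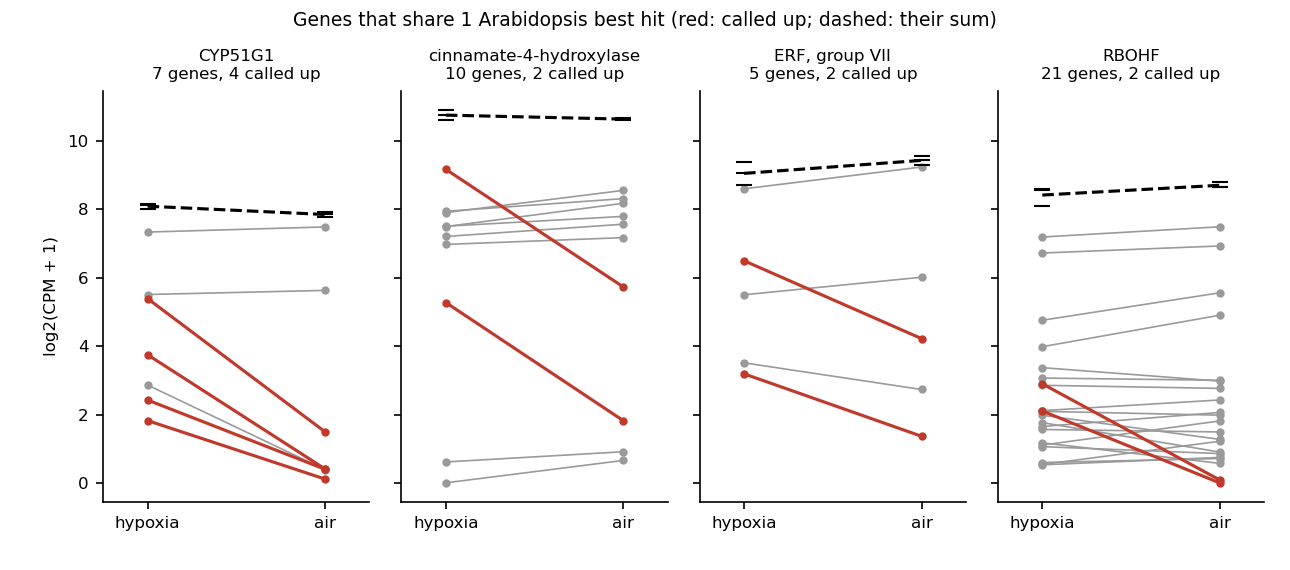
Mean level on the scale of log2(CPM + 1) in hypoxia (left of each panel) and air (right) for each gene that shares 1 Arabidopsis best hit: CYP51G1, cinnamate-4-hydroxylase, the ERFVII hit AT3G16770 and RBOHF. Red lines are upregulated genes, grey lines genes not called, the dashed line is the sum over the hit and black ticks its single libraries. In each panel the red genes are higher in hypoxia while the sum changes by -0.38 to 0.24 log2 units.

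This split was common. Of the 76 Arabidopsis hits with an upregulated gene, the sum over the hit was upregulated for 31 and not called for 45, and in 22 of the 45 the sum lay within 0.5 log2 units of 0. In the 45 the upregulated genes held a median of 22.2% of the hit's CPM in hypoxia and 5.51% in air. Reads of near-identical genes can be shared between them by the counting, so single genes of a hit are less certain than their sum. The sums that did pass were led by the single-gene NADPH oxidase hit AT1G09090, near 0 in air and described below, and then by the Rubisco small subunit hit AT1G67090, PDC3, FBA2, PDC1, ADH1 and PCO1, with log2FC of 3.03, 2.93, 2.71, 2.69, 2.64 and 2.55. The Rubisco small subunit hit was a minor one, with 21.2, 21.1 and 34.8 CPM in hypoxia and 2.27, 2.14 and 2.13 CPM in air, and the other small subunit hit, AT5G38430, summed to 185 CPM in hypoxia and 251 CPM in air.

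Further oxygen-using enzymes were induced in part. The stearoyl-ACP desaturase genes, which place the first double bond in fatty acids, were called for 2 of 8 members: Ehym_DN105963_c0_g3 had 37.6, 33.2 and 41.3 CPM in hypoxia and 7.38, 8.62 and 6.55 CPM in air (log2FC 2.17 ± 0.16), and Ehym_DN105963_c0_g4 had a log2FC of 1.71. No membrane fatty acid desaturase was called among 15, but a list this small can have no call at the share of all genes with a hit (0.539%). Abscisic acid 8'-hydroxylase (CYP707A), the enzyme that inactivates the hormone abscisic acid, was called for both genes with a CYP707A3 hit. Ehym_DN109327_c3_g3 had 109, 107 and 97.3 CPM in hypoxia and 39.5, 43.3 and 42.0 CPM in air (log2FC 1.31 ± 0.12, FDR = 0.00019), and Ehym_DN109327_c3_g1 had a log2FC of 1.60. The remaining call among genes with cytochrome P450 in their name was a cytokinin hydroxylase hit (CYP735A2). Ehym_DN107773_c2_g3 had 11.9, 7.76 and 8.83 CPM in hypoxia and 2.04, 2.91 and 3.03 CPM in air. This gene was not called without hypoxia replicate 1, hypoxia replicate 3 or any single air library. Of 53 genes for oxygenases dependent on 2-oxoglutarate 1 was called, beside 0.539% of all genes with a hit, and 0 to 2 when a library was left out (0 without hypoxia replicate 1 or any single air library). Respiration itself was not called: 0 of 58 genes of the respiratory complexes and 0 of 8 alternative oxidase genes passed in limma, with 3 and 0 higher and 2 and 1 lower at p under 0.05 without adjustment. On this measure 6.46% of all genes with a hit were higher and 7.3% lower. The small hypoxia-responsive family, mitochondrial proteins of the HIG1 type, had 1 called gene of 4, Ehym_DN92335_c0_g1 with 31.5, 34.1 and 47.5 CPM in hypoxia and 14.5, 15.8 and 17.0 CPM in air (log2FC 1.19 ± 0.17, FDR = 0.0057), which was lost without hypoxia replicate 3 or any single air library.

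NADPH oxidases, which use oxygen to make superoxide for signalling, included genes that were near silent in air. Ehym_DN108197_c0_g2 (hit AT1G09090, RBOHB) had 11.3, 12.2 and 18.1 CPM in hypoxia and at most 0.068 CPM, about a read, in air (FDR = 2.2e-05). Ehym_DN108197_c0_g1 (hit RBOHF) had 5.70, 5.14 and 8.66 CPM in hypoxia and at most 0.115 CPM in air, and Ehym_DN89310_c0_g1 (hit RBOHF) had 2.52, 3.45 and 4.0 CPM in hypoxia and at most 0.0252 CPM in air. The log2FC of such genes depends on the pseudocount and is not given. The RBOHF gene of highest CPM, Ehym_DN107676_c9_g1, had 174, 155 and 107 CPM in hypoxia and 175, 164 and 198 CPM in air (FDR = 0.49).

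Calls among transcription factors were spread over several families, beside 0.539% of all genes with a hit upregulated. A pair of genes with the hit AT1G21200, a DNA-binding factor, rose together: Ehym_DN109823_c3_g3 had 122, 69.2 and 64.2 CPM in hypoxia and 6.51, 8.01 and 3.75 CPM in air (log2FC 3.59 ± 0.28), and Ehym_DN107514_c2_g1 had 109, 58.6 and 60.1 CPM in hypoxia and 6.25, 2.79 and 6.87 CPM in air (log2FC 3.62 ± 0.31). Hypoxia replicate 1 was the highest library for both. CCCH zinc finger genes with the hit AT4G29190 were upregulated, Ehym_DN104329_c1_g3 with 27.8, 15.4 and 19.0 CPM in hypoxia and 0.333, 0.940 and 0.911 CPM in air (log2FC 3.63 ± 0.27) and Ehym_DN104329_c1_g2 with 19.0, 10 and 6.34 CPM in hypoxia and at most 0.136 CPM in air. bHLH factors related to ALCATRAZ and SPATULA, which shape fruit and organ growth in Arabidopsis, gave 3 calls among 136 bHLH genes (2.21%). This list was drawn up after the values had been seen. Ehym_DN107712_c0_g2 (hit ALCATRAZ) had 43.3, 24.9 and 22.6 CPM in hypoxia and 1.73, 1.84 and 1.54 CPM in air (log2FC 3.48 ± 0.24). Summed over the hit, ALCATRAZ had 149 CPM in hypoxia and 119 CPM in air, and SPATULA had 168 and 167 CPM. Neither sum was called.

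NAC047, which in Arabidopsis promotes the upward bending of waterlogged leaves, was the hit of Ehym_DN107610_c0_g2, with 63.1, 41.6 and 41.6 CPM in hypoxia and 10.3, 6.52 and 8.99 CPM in air (log2FC 2.37 ± 0.21, FDR = 0.00019); it was the only call among 80 NAC genes. NGATHA-type B3 factors, regulators of leaf and flower growth, were called for 3 of 4 genes, and the fourth, Ehym_DN101629_c0_g1, missed with 33.1, 21.0 and 26.6 CPM in hypoxia and 12.4, 10.04 and 13.2 CPM in air (log2FC 1.10, FDR = 0.016). Ehym_DN100198_c0_g2 (hit AT2G46870, NGA1) had 45.4, 51.5 and 39.5 CPM in hypoxia and 14.4, 11.1 and 14.02 CPM in air (log2FC 1.71 ± 0.16). Of 95 WRKY genes the 2 with a WRKY2 hit were upregulated, Ehym_DN107264_c0_g2 with 17.0, 11.3 and 9.50 CPM in hypoxia and 2.04, 1.56 and 0.443 CPM in air (FDR = 0.0018) and Ehym_DN107264_c0_g1 (FDR = 0.0019). Neither was called without air replicate 3, and Ehym_DN107264_c0_g2 was not called without hypoxia replicate 3. The sum over the WRKY2 hit was 195 CPM in hypoxia and 163 CPM in air and was not called (FDR = 0.19). Without hypoxia replicate 4, 2 other WRKY genes were downregulated. ERF4, a repressor of the ethylene response, was hit by a called pair at low level, Ehym_DN75019_c0_g1 and Ehym_DN92156_c0_g1, with 2.12 to 4.04 and 1.31 to 1.91 CPM in hypoxia and at most 0.289 and 0.284 CPM in air. Ehym_DN92156_c0_g1 was not called when any library was left out (FDR = 0.012 without hypoxia replicate 4), nor was Ehym_DN75019_c0_g1 without hypoxia replicate 3 or any single air library. None of 143 MYB genes was called in limma, but 21 were higher and 6 lower at p under 0.05 without adjustment. Of all genes with a hit, 6.46% were higher and 7.3% lower on this measure. Regulators of light and time were called at the edge of the fold threshold: a phytochrome B hit, Ehym_DN105903_c6_g1, had 42.3, 42.6 and 44.2 CPM in hypoxia and 18.001, 16.4 and 22.1 CPM in air (log2FC 1.16 ± 0.14), and a PRR7 hit, Ehym_DN104912_c0_g2, had 45.9, 41.4 and 35.5 CPM in hypoxia and 20.02, 21.7 and 16.8 CPM in air (log2FC 1.03 ± 0.15). The sums over the phytochrome B and PRR7 hits were not called (FDR = 0.13 and 0.18). The phytochrome gene was not called without hypoxia replicate 3, air replicate 1 or air replicate 3, and the PRR7 gene kept its call when hypoxia replicate 4 was left out and lost it when any other library was.

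Genes of amino acid metabolism were called in both directions. Of 8 genes in the list for serine synthesis from 3-phosphoglycerate, 3 were upregulated. The count was 2 when any hypoxia library or air replicate 1 was left out, and 1 without air replicate 3 or 4. With a replicate block it was 1. The list also held 2 genes with the hit AT3G19240, which is named as a vacuolar import and degradation protein rather than a serine enzyme. Neither of them was called. Phosphoglycerate dehydrogenase, the entry enzyme of serine synthesis, had 161, 114 and 135 CPM in hypoxia and 22.6, 19.7 and 24.6 CPM in air in Ehym_DN104284_c0_g1 (log2FC 2.56 ± 0.15, FDR = 1.6e-05). Phosphoserine aminotransferase, the next enzyme, had 24.4, 23.3 and 27.5 CPM in hypoxia and 10.8, 10.5 and 9.95 CPM in air in Ehym_DN101469_c0_g2 (log2FC 1.19 ± 0.15), and phosphoserine phosphatase, the last, had no called gene (summed levels 20.2 CPM in hypoxia and 19.4 CPM in air). The aminotransferase gene was not called when any air library was left out. The other dehydrogenase gene, Ehym_DN102235_c0_g1, was called when air replicate 1 was left out but not when any other library was (FDR = 0.016 without hypoxia replicate 4).

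Glutamine synthetase, which binds ammonium to glutamate, was called in both directions. Ehym_DN109205_c0_g3 (hit AT5G37600, GLN1;1) had 75.6, 51.7 and 61.6 CPM in hypoxia and 13.6, 12.3 and 9.05 CPM in air (log2FC 2.34 ± 0.19), and Ehym_DN109205_c0_g4 (hit AT5G16570) had 18.4, 12.8 and 19.3 CPM in hypoxia and 2.84, 2.74 and 2.59 CPM in air (log2FC 2.24 ± 0.21). By contrast Ehym_DN97600_c0_g1 (hit AT3G17820, GLN1;3) fell to 59.8, 53.0 and 39.2 CPM in hypoxia, against 130, 117 and 135 CPM in air (log2FC -1.33 ± 0.16, FDR = 0.0015), and its neighbour Ehym_DN97600_c0_g2 fell as well (log2FC -1.36 ± 0.21). Summed over the hit, GLN1;3 had 1722 CPM in hypoxia and 2221 CPM in air, and GLN1;1 had 452 and 331 CPM, and these sums were not called. Neither of the downregulated genes was called when any air library was left out. Polyamine metabolism was mixed too. Arginase, which releases ornithine from arginine, rose in Ehym_DN97920_c0_g1 (49.8, 44.6 and 65.8 CPM in hypoxia, 20.3, 22.2 and 20.5 CPM in air), whereas polyamine oxidase 3 in Ehym_DN103527_c0_g2 fell to 13.1, 20.2 and 16.1 CPM in hypoxia, against 54.0, 40.5 and 51.8 CPM in air (log2FC -1.52 ± 0.18), and the S-adenosylmethionine decarboxylase gene Ehym_DN106409_c3_g2 fell to 8.56, 5.58 and 6.40 CPM in hypoxia, against 19.8, 19.7 and 21.3 CPM in air (log2FC -1.46 ± 0.18). Summed over the hit, the decarboxylase had 1239 CPM in hypoxia and 1379 CPM in air (FDR = 0.36), and polyamine oxidase 3 had 64.9 and 97.4 CPM (FDR = 0.022). Neither sum was called, nor was that of arginase (FDR = 0.014). The arginase and decarboxylase genes were not called when any air library was left out. The decarboxylase gene was also lost without hypoxia replicate 3, and the oxidase gene without air replicate 1 or 4.

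Other induced genes belonged to hormones, walls and protein turnover. Allene oxide cyclase 4, which makes the precursor of jasmonate, was the hit of 2 called genes, and the sum of the hit had 66.1, 62.6 and 65.3 CPM in hypoxia and 28.8, 19.5 and 21.0 CPM in air (log2FC 1.47 ± 0.14, FDR = 0.0013). Without air replicate 4 neither of these genes was called, and 1 gene of the jasmonate list was called without each other library except hypoxia replicate 4, where 2 were. Polyubiquitin and ubiquitin extension genes were called for 4 of 40 members, among them Ehym_DN111265_c1_g1 (hit polyubiquitin 10) with 40.2, 45.8 and 55.8 CPM in hypoxia and 10.3, 10.6 and 7.30 CPM in air (log2FC 2.22 ± 0.18). The polyubiquitin 10 hit summed to 431 CPM in hypoxia and 363 CPM in air, which was not called (FDR = 0.22). Of 55 genes for xyloglucan endotransglucosylases and expansins, which loosen walls, 1 was called, Ehym_DN109551_c0_g3 (16.5, 31.98 and 27.2 CPM in hypoxia, 8.56, 6.17 and 6.87 CPM in air, FDR = 0.0056), but 46 of the 55 were higher in hypoxia and the list median was 0.32. That gene was not called without hypoxia replicate 3 or any single air library. Hypoxia replicate 4 had the highest sum of this list, at 1206 CPM, against 817 and 941 CPM in the other hypoxia libraries and 600 to 767 CPM in air.

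Among downregulated genes was carbonic anhydrase 2, a leaf enzyme that interconverts CO2 and bicarbonate. Both of its genes were downregulated: Ehym_DN111551_c0_g2 fell to 523, 507 and 466 CPM in hypoxia, against 1236, 1243 and 1125 CPM in air (log2FC -1.27 ± 0.11, FDR = 0.00019), and Ehym_DN111551_c0_g3 fell to 243, 214 and 198 CPM in hypoxia, against 594, 476 and 493 CPM in air (log2FC -1.25 ± 0.13). These genes were called in every alternative fit, which held for 1 other downregulated gene with a hit, the pyruvate kinase subunit Ehym_DN106316_c5_g5. Purple acid phosphatase 3 in Ehym_DN92986_c1_g2 fell to 6.36, 7.21 and 9.88 CPM in hypoxia, against 33.4, 33.1 and 22.3 CPM in air (log2FC -1.79 ± 0.21), and aminopeptidase M1 in Ehym_DN107032_c0_g1 fell to 6.42, 1.64 and 4.06 CPM, against 26.0, 19.0 and 20.2 CPM in air (log2FC -2.28 ± 0.33). A cysteine protease hit (Ehym_DN102951_c0_g4, log2FC -1.61), HSP81-3, an HSP90-type chaperone (Ehym_DN111006_c0_g2, log2FC -1.24), galacturonosyltransferase 14 of pectin synthesis (Ehym_DN104855_c1_g11, log2FC -1.22), the plastid sugar phosphate carrier GPT1 (Ehym_DN92133_c0_g1, log2FC -1.07) and a Clp ATPase of the plastid (Ehym_DN108521_c2_g3, log2FC -1.01) were also downregulated. Summed over the hit, HSP81-3 had 1471 CPM in hypoxia and 1674 CPM in air (FDR = 0.28), and aminopeptidase M1 had 64.3 and 72.2 CPM (FDR = 0.36). Among hits of this paragraph, only carbonic anhydrase 2, purple acid phosphatase 3 and galacturonosyltransferase 14 had a downregulated sum. Of the downregulated genes in this paragraph, GPT1 was not called without hypoxia replicate 4, and each except the carbonic anhydrase and pyruvate kinase genes lost its call when at least 1 of the air libraries was left out.

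Genes of photosynthesis, folding, division and translation were nearly all under the thresholds. None of 161 photosystem and antenna genes was called in limma, yet 135 of them were lower in hypoxia, 60 at an unadjusted p under 0.05 and 67 without overlap between the libraries (41.6%, against 10.8% of all genes with a hit, where 9.11% were separate in the other direction), with a median log2FC of -0.26. Without hypoxia replicate 4, 1 of the 161 was downregulated. Rubisco activase, the chaperone of Rubisco, had 1524, 1737 and 1591 CPM in hypoxia and 2209, 2150 and 2081 CPM in air in Ehym_DN111459_c0_g1 (log2FC -0.41, FDR = 0.14). Large chaperones had 1 downward call in 231 genes, beside 0.0757% of all genes with a hit. Of the 231, 147 were lower (median log2FC -0.09), and small heat shock proteins had no call in 17. Genes of histones and cell division had 1 call in 196 (0.539% of all genes with a hit were upregulated), Ehym_DN102497_c0_g2 (log2FC 1.32, FDR = 0.0097), which was lost when any library was left out (FDR = 0.013 without hypoxia replicate 4) and with a replicate block. Of the 196 genes 161 were higher and 59 were higher at p under 0.05 without adjustment, beside 6.46% of all genes with a hit (median log2FC 0.28). Their sum was 2708, 2828 and 3507 CPM in hypoxia replicates 1, 3 and 4, against 2256 to 2350 CPM in air. Ribosomal protein genes, with 0 calls in 546 (20 higher and 13 lower at p under 0.05 without adjustment), summed to 33088, 35262 and 44179 CPM in hypoxia, against 32473 to 34404 CPM in air, so that the excess lay in hypoxia replicate 4. Further lists had no call in limma. Beside their counts, 6.46% of all genes with a hit were higher and 7.3% lower at p under 0.05 without adjustment. For the citric acid cycle, 1 of 39 genes were higher and 6 lower at p under 0.05 without adjustment. For starch degradation, 2 of 55 genes were higher and 13 lower at p under 0.05 without adjustment. For sugar transport, 2 of 22 genes were higher and 3 lower at p under 0.05 without adjustment. For the aquaporin water channels, 8 of 41 genes were higher and 2 lower at p under 0.05 without adjustment.

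Genes without an Arabidopsis hit made up 258 of the 372 upregulated genes (69.4%), and 9 of the 25 downregulated. They were called upward in 0.756% and downward in 0.0264% of 34123 genes. Of the 258, 36 shared a Trinity cluster with a gene that had a hit and 11 with a called gene that had one. Some of the largest changes of the table were among them; the genes named next were picked for their values. Ehym_DN109231_c6_g1 had 158, 98.6 and 115 CPM in hypoxia and 3.64, 4.04 and 2.90 CPM in air (log2FC 4.77 ± 0.19, FDR = 2.8e-06). Ehym_DN107447_c1_g2 had 425, 391 and 540 CPM in hypoxia and 37.1, 30.002 and 26.0 CPM in air (log2FC 3.82 ± 0.16), and Ehym_DN111002_c3_g3 had 236, 172 and 240 CPM in hypoxia and 13.2, 12.4 and 10.3 CPM in air (log2FC 4.05 ± 0.16). Ehym_DN108005_c0_g2 was listed at 0 in all air libraries and had 12.4, 8.99 and 13.3 CPM in hypoxia.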

How the data were processed

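Total RNA of *E. hyemale* shoots was sequenced as poly(A) libraries in 3 hypoxia and 3 air samples. The authors trimmed the reads, assembled them with Trinity, counted them per assembled gene with Kallisto (versions not given in the sources used here), dropped genes low in every sample and deposited TMM-scaled log2 CPM values per library, where a 0 appears as a spreadsheet error text. Columns of the authors' own comparison (fold change and FDR) were not used. The rows of the per-library values did not follow those of the identifiers, and were matched to the identifiers as sorted with the low line before digits, after which their correlation with the authors' average log2 CPM was 0.999999, against 0.0099 before, and all 55254 genes were within 0.1 log2 units.

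Values were returned to CPM, and log2(CPM + 1) was compared with limma 3.58.1 (trended variance, R 4.3.3), with Benjamini-Hochberg adjustment over all genes. Hypoxia was set against air with no covariate, and genes were called at an FDR of at most 0.01 and an absolute log2FC above 1. No count test was run since read counts were not used here. Whole-read steps gave only an estimate of depth: 40.1 to 45.2% of low values were whole within 0.1 read. Genes of the same best hit were also summed. The fit was also run on simulated data with independent noise and no outlying library. That run cannot show how the fit deals with hypoxia replicate 4 or with reads shared between genes. Alternatives were pseudocounts of 0.1 and 5, a filter of 1 CPM, other scalings, variance settings, thresholds, a replicate block, sums per Trinity cluster, and leaving out each library. Replicate numbers do not mark a shared source in the labels, and P values measure the spread between these samples.

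The members and gene lists were chosen with earlier results of these data known. The naming rule took the 20 largest increases and 20 largest decreases among called genes whose libraries do not overlap. Genes with a hit came before those without, and 16 downregulated genes had a hit. It also took the member of highest CPM and the 4 largest called changes of each list, and all members of lists of up to 6. The called genes of highest CPM and the best-hit sums of largest change were added. Not every gene that this rule selects is described. Genes without a hit, genes called only without hypoxia replicate 4, genes on in some libraries only and a few neighbours of named genes were chosen after their values were seen.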

Additional observations from a re-analysis of the deposited data

How the results depend on the processing

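The 372 upregulated genes became 559 at an FDR under 0.05 and 245 when genes of the same Trinity cluster were summed, and leaving out 1 library gave 210 to 454. The 25 downregulated genes became 15 with a pseudocount of 0.1 or of 5, 16 without the variance trend, 99 at an FDR under 0.05 and 13 summed per Trinity cluster, and leaving out 1 library gave 8 to 81, the highest without hypoxia replicate 4. For sums per best hit, leaving out 1 library gave 23 to 45 upregulated and 1 to 16 downregulated, and the 3 downregulated sums became 10 at an FDR under 0.05 and 20 with no minimum fold. With the replicate block 323 genes were upregulated and 19 downregulated, and 32 and 1 sums. The block is not a pairing in the design: same-numbered libraries had correlations of their deviations of -0.11, -0.08 and -0.28, and no library of the hypoxia group correlated best with its own number. Of 98 called genes selected by the naming rule, none changed sign, 52 kept their call in all 17 alternative fits, and 46 lost it in at least 1, most often without an air library (35 to 42). Leaving out hypoxia replicate 1, 3 or 4 instead lost 17, 27 and 8 of these calls. The cause of these losses was not tested. Depth limits genes near 0.05 CPM, where a read or less separates the groups, and single genes of a hit cannot be resolved better than the assembly allows.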

Other observations

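Without hypoxia replicate 4, 62 genes were downregulated that were not called with all 6 libraries, and the values below were picked after they had been seen. Downregulated genes numbered 81, against 25 with all libraries, and 38 against 16 among genes with a hit. Of 231 large chaperone genes 5 were downregulated, against 1 with all libraries. The DNAJ homologue 3 gene Ehym_DN106788_c1_g2 had 3.68 and 5.55 CPM in hypoxia replicates 1 and 3 and 9.19 CPM in hypoxia replicate 4, against 21.7, 11.3 and 17.3 CPM in air. Ehym_DN88754_c0_g1 (hit WRKY24) had 2.17, 2.91 and 11.97 CPM in hypoxia replicates 1, 3 and 4, against 8.08, 8.20 and 7.21 CPM in air, and Ehym_DN109928_c6_g1 (hit UGT85A7) had 4.87, 9.67 and 30.4 CPM, against 19.4, 29.98 and 22.1 CPM in air. In both genes hypoxia replicate 4 lay above the air range.

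In 12 genes a library was under 3 reads while another reached 20 CPM, of which 1, Ehym_DN84145_c0_g1, was upregulated (20.6, 17.0 and 14.3 CPM in hypoxia, 1.23, 0 and 1.52 CPM in air, FDR = 0.00043). In Ehym_DN107866_c2_g4 the groups did not overlap but the gene was not called (FDR = 0.023), and in the other 10 the groups overlapped. In 3 of the 10 the libraries under 3 reads were hypoxia replicates 1 and 3. Ehym_DN97828_c0_g2 was at 0 in hypoxia replicates 1 and 3 and had 146 CPM in hypoxia replicate 4, against 99.0, 108 and 46.8 CPM in air, and Ehym_DN92725_c0_g1 and Ehym_DN111065_c2_g1 followed the same pattern with 70.1 and 79.6 CPM in hypoxia replicate 4. None of the 3 had an Arabidopsis hit. The gene Ehym_DN112223_c1_g1, also without a hit, had 2364, 4339 and 1357 CPM in hypoxia and 550, 614 and 266 CPM in air, yet it was not called (log2FC 2.42, FDR = 0.0118).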
